A study of Homo sapiens with 6 samples.

Results

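Long noncoding RNAs (lncRNAs) that stay in the nucleus, and lncRNAs whose transcripts are cut to release microRNAs, were examined in T24 cells, an established human bladder cancer line. The group held 6 genes of the 58174 in the deposited files, taken by symbol: GACAT2, NEAT1, MALAT1, MIR22HG, MIR155HG and MIR31HG. They were listed by name with the results of the same comparison already known, so their differences between the groups are given as a description and without a p-value. All cells carried an shRNA from a lentiviral pLKO.1 vector and had been selected with puromycin for stable expression. In 3 samples, shRNA-NC, this was the scrambled control, and 3 samples, shRNA-UBC9, carried an shRNA against UBC9, the enzyme that conjugates SUMO proteins to their substrates. One hairpin was described for UBC9, so its effects on other transcripts cannot be told apart from those of UBC9 loss. The labels do not say whether replicates came from separate cultures, and p-values then measure only the spread between these samples, which may be technical.

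NEAT1 and MALAT1 lie side by side on chromosome 11 and are among the most abundant nuclear lncRNAs. NEAT1 is the scaffold of paraspeckles, nuclear bodies built with RNA-binding proteins such as NONO and SFPQ, and MALAT1 gathers in nuclear speckles, where splicing factors are stored. A microRNA host gene is transcribed as a long precursor from which the nuclease Drosha cuts a hairpin that Dicer trims to the mature microRNA, and the mature strand finds its targets mainly through its seed, bases 2 to 8. MIR22HG, MIR155HG and MIR31HG are the hosts of miR-22, miR-155 and miR-31. GACAT2 was named as a gastric cancer-associated transcript, and its function is poorly known.

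The microRNAs of the 3 hosts are shown first because the host genes are defined by them. Their mature strands, with the seed in capitals, read 5′ to 3′ in RefSeq (GRCh38.p14) as follows, together with the strand of miR-146a from MIR3142HG and a pair from MIR222HG, hosts that are described with the other microRNA host genes.
hsa-miR-22-3p: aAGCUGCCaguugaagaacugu
hsa-miR-155-5p: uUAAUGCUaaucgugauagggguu
hsa-miR-31-5p: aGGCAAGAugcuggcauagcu
hsa-miR-146a-5p: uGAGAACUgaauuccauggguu
hsa-miR-221-3p: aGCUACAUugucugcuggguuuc
hsa-miR-222-3p: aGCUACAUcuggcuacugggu

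The seeds of miR-22-3p, miR-155-5p and miR-31-5p differ from each other, and each occurs 1 time in the table. miR-221-3p and miR-222-3p share the seed GCUACAU. The strand of miR-22-3p lies at chr17:1713914-1713935 on the minus strand, inside an annotated exon of MIR22HG. That of miR-155-5p lies at chr21:25573983-25574006 on the plus strand, inside an exon of MIR155HG. That of miR-31-5p lies at chr9:21512158-21512178 on the minus strand, within the span of MIR31HG but not within an exon. The rows for MIR22, MIR155 and MIR31 were at 0 RPKM in all 6 samples. The libraries were made from polyA RNA, so the values of the hosts describe long transcripts and not mature microRNAs.

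Promoters are shown for GACAT2, the member with the largest difference, and MIR155HG, the member whose promoter held most of the motifs searched. Each covers 250 bases before to 50 after the RefSeq start (GRCh38.p14), read 5′ to 3′ on the strand of the gene, which is minus for GACAT2 (chr18:8707572-8707871) and plus for MIR155HG (chr21:25561895-25562194). Capitals mark matches to the motifs.
GACAT2 promoter: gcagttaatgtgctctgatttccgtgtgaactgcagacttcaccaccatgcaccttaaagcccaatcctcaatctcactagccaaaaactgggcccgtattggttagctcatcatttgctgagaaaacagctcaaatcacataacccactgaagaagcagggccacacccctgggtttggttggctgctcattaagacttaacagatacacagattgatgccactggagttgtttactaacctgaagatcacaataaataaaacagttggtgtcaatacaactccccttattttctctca
MIR155HG promoter: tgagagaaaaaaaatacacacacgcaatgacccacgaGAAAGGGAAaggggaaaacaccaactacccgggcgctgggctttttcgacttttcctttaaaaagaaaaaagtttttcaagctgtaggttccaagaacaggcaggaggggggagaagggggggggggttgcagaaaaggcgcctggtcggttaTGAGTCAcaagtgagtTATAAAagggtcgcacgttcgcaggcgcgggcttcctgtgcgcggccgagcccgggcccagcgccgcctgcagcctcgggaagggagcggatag

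The motifs were searched on both strands. The AP-1 motif was written as TGANTCA and the CRE as TGACGTCA. For NF-kappaB the letters were GGNNTTTCC, and for ISRE, the interferon-stimulated response element, GAAANNGAA. The E-box was CACGTG, and the TATA motif had the letters TATAAA. The MIR155HG promoter held an ISRE match at -213, an AP-1 match at -60 and a TATA match at -44 from the start, and these did not overlap. Of 35116 promoters of the same length, 8.11% held the ISRE letters, 7.71% the AP-1 letters and 11.5% the TATA letters. CRE letters were in 1.85%, NF-kappaB letters in 6.26% and E-box letters in 7.26%. One of the RefSeq entries for MALAT1 held TATA at -30, and no match was found for GACAT2, MIR22HG or MIR31HG. Promoters were matched for 5 of the 6 members, NEAT1 being the one without an entry. A match describes letters in the window and says nothing of binding in these cells.

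The authors deposited RPKM, reads scaled to the length of the gene model and to the mapped reads of the library. Depth, recovered from the steps of low values, was between 28219000 and 36059000 mapped reads (or read pairs, if pairs were counted) per sample, and the ranges of the groups overlapped. Epithelial markers of T24 were present, with KRT7 between 216 and 627 RPKM, whereas KRT5 and KRT20 were at 0 and CDH1 and the uroplakins at or near 0. Among the 6 leukocyte markers, the defining PTPRC and CD3E were at or below 0.19 RPKM, while CD68 rose from a mean of 2.65 to 32.2 RPKM. The summed level of that list was 2.09 to 4.05 RPKM in shRNA-NC and 19.6 to 49.4 RPKM in shRNA-UBC9. In a list of 15 epithelial and urothelial markers that also holds the mesenchymal marker VIM, 8 were tested. At an absolute log2 fold change above 1 with an adjusted p below 0.05, 2 fell (KRT7 and PPARG) and none rose. Of all tested genes 2.7% fell and 5.2% rose by that rule. At an adjusted p below 0.05 with any fold change 6 were lower and none higher, against 18.0% and 18.8% of all tested genes. The median log2 difference of the 8 was -0.87. The summed level of that list, VIM included, was 1377 to 1627 RPKM in shRNA-NC and 809 to 910 RPKM in shRNA-UBC9, with VIM itself at 416 to 496 and 286 to 473 RPKM. Of 8 fibroblast and endothelial markers 3 were tested, and 2 fell with the fold requirement, against 2.7% of all tested genes. These were CDH5, from a mean of 2.87 to 0.619 RPKM, and PDGFRB, from 0.764 to 0.202 RPKM. The remaining tested marker was higher at an adjusted p below 0.05 with any fold change, as were 18.8% of all tested genes. The part of these shifts in the results was not tested.

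Of the 6 members, GACAT2 passed the threshold for differentially expressed genes (DEGs), an absolute log2 fold change above 1 with an adjusted p below 0.05, as did 7.89% of the 12428 genes tested (5.2% higher and 2.7% lower in shRNA-UBC9). Without the fold requirement 2 members passed, GACAT2 and MIR22HG, against 36.8% of all tested genes. The same 2 members had groups that did not overlap, which held for 51.1% of all tested genes. Since the members were chosen on this comparison, nothing is read from these shares. Every member had a value of at least 0.5 RPKM in all 6 samples, so none passed the filter through 1 group alone.

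**Figure D1:**
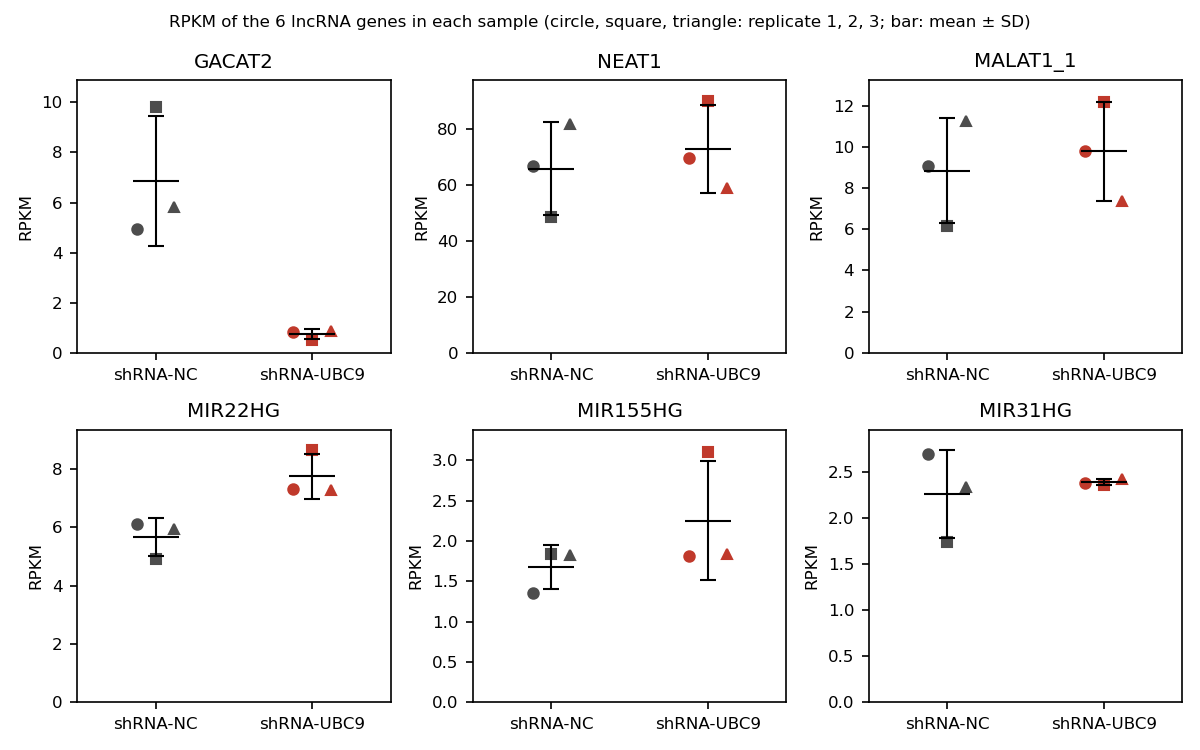
RPKM of the 6 genes in each sample, with a panel and an axis from 0 for each gene. Points are samples (circle, square and triangle for replicates 1, 2 and 3) and bars are the mean ± SD of 3 samples. GACAT2 separates the groups at 4.96 RPKM or more against 0.866 RPKM or less, MIR22HG at 6.10 RPKM or less against 7.27 RPKM or more, and the other 4 genes overlap.

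GACAT2 (chr18:8695856-8707699, minus strand, GENCODE 44, GRCh38) is a lncRNA with 2 exons. It was at 4.96, 9.81 and 5.82 RPKM in shRNA-NC replicates 1, 2 and 3 and at 0.848, 0.520 and 0.866 RPKM in shRNA-UBC9. All 3 knockdown samples lay far below all 3 controls. The group means were 6.86 ± 2.59 and 0.745 ± 0.195 RPKM (SD, n = 3 each), and shRNA-UBC9 was thus 9.21-fold lower by the ratio of means. On the log2(RPKM + 0.1) scale the difference was -3.01 (SE 0.27), and it was between -3.21 and -2.72 when each sample was left out in turn. In bulk RNA, fewer cells that express a gene and less RNA per cell cannot be told apart. The values of GACAT2 correspond to 121, 278 and 161 reads in shRNA-NC and to 25, 15 and 20 reads in shRNA-UBC9 for a gene model of 818 bases. The highest shRNA-UBC9 count, 25, has an exact Poisson 95% interval of 16.2 to 36.9 reads. That of the lowest shRNA-NC count, 121, is 100.4 to 144.6 reads. These intervals cover counting error only, and the libraries differ in depth. They are a description and no test, since GACAT2 was chosen with this difference known.

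GACAT2 moved from the middle of the members' levels to the bottom. In shRNA-NC its range overlapped those of MALAT1 and MIR22HG and lay above those of MIR31HG and MIR155HG. In shRNA-UBC9 it lay below the ranges of all other members. By its mean over the 6 samples, 35.6% of the tested genes had a lower level.

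The start of GACAT2 lies within MTCL1 (chr18:8705556-8832778, plus strand), which encodes a microtubule crosslinking protein and is transcribed the other way. The annotated exons share 155 bases of the 896 exon bases of GACAT2. Whether strand was used in counting is not given in the sources used here, so reads from the shared bases cannot be assigned to either gene. MTCL1 was at 15.1, 18.5 and 14.4 RPKM in shRNA-NC and at 4.89, 5.51 and 6.04 RPKM in shRNA-UBC9, and its groups did not overlap. It was the only DEG among the 19 genes tested within 100 kb of a member, while 7.89% of all tested genes were DEGs. Its log2 difference was -1.53 (SE 0.12, limma adjusted p = 0.000109). The highest control sample was replicate 2 for both genes. The ratio of GACAT2 to MTCL1 in RPKM was 0.328 to 0.530 in shRNA-NC and 0.0945 to 0.173 in shRNA-UBC9, a difference of -1.63 between the group means of the log2 ratios of the samples. What part of the difference in GACAT2 comes from shared bases was not tested.

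**Figure D2:**
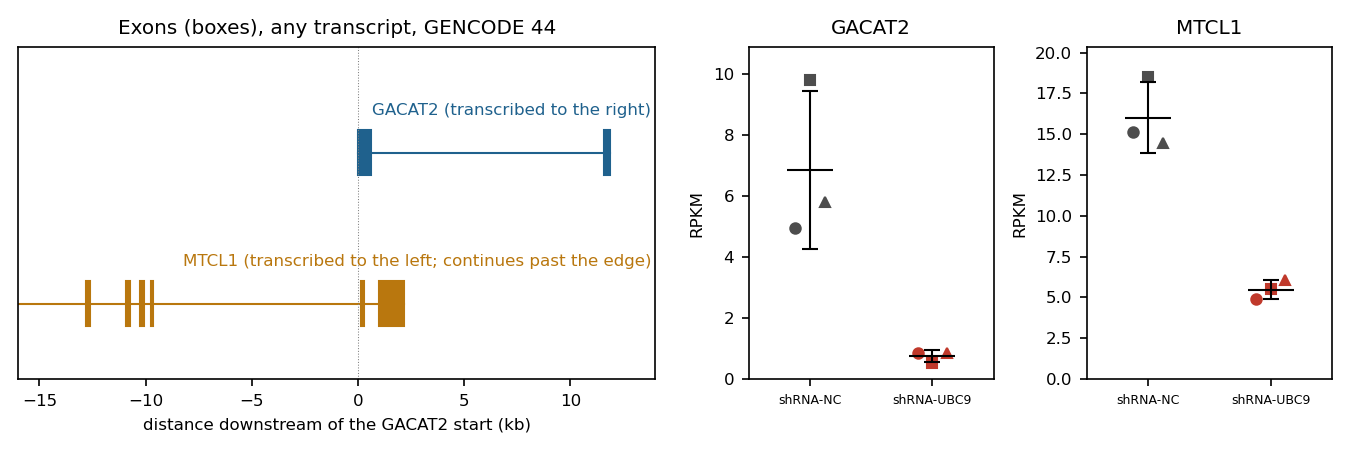
The left panel maps the annotated exons (boxes) of GACAT2 and MTCL1 around the start of GACAT2, with distance in kilobases on the horizontal axis and MTCL1 running past the left edge. The other panels give RPKM of both genes in each sample (circle, square and triangle for replicates 1, 2 and 3, bars for the mean ± SD, n = 3), with shRNA-NC above shRNA-UBC9 for both.

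On the other side of GACAT2, RAB12, a small GTPase of membrane traffic, had a mean of 15.01 ± 1.62 RPKM in shRNA-NC and 23.6 ± 2.45 RPKM in shRNA-UBC9 (SD, n = 3 each). It differed by 0.65 on the log2 scale (SE 0.11, limma adjusted p = 0.00349), below the fold threshold. RAB12 was picked after its value was seen. The genes whose log2 values followed GACAT2 most closely over the 6 samples were ANKRD28 (Pearson r = 0.9986) and RAD21 (r = 0.9979), out of 12422 compared. RAD21 is a subunit of cohesin, and ANKRD28 is a regulatory subunit of protein phosphatase complexes. With 6 points in 2 separate groups such values mostly restate the group difference, and 1409 genes exceeded r = 0.9.

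NEAT1 (chr11:65422774-65445540, plus strand) was the most abundant member in every sample, with 96.1% of tested genes at a lower mean level. It was at 66.9, 48.8 and 82.1 RPKM in shRNA-NC and at 69.6, 90.1 and 59.2 RPKM in shRNA-UBC9. Its groups overlapped, and the lowest and the highest sample were replicate 2 of shRNA-NC and replicate 2 of shRNA-UBC9. The means were 65.9 ± 16.6 and 73.0 ± 15.7 RPKM (SD, n = 3 each), with a log2 difference of 0.16 (SE 0.21). Without shRNA-NC replicate 2 the difference was -0.04 and without shRNA-UBC9 replicate 2 it was -0.01, so its sign rested on those libraries. These values correspond to 3830 to 7285 reads on a gene model of 2294 bases. The annotation gives NEAT1 22767 exon bases over all transcripts, and the rows NEAT1_1, NEAT1_2 and NEAT1_3 were at 0 in all samples. What these numbered rows stand for is not given in the sources used here, so their values are not read as levels of NEAT1 isoforms. The long NEAT1 isoform that builds paraspeckles lacks a polyA tail, so libraries from polyA RNA may not show it at its true level.

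MALAT1 (chr11:65497640-65508073, plus strand) has no row under its bare symbol. Rows with a numbered suffix exist for 279 symbols, of which 244 have no row under the bare symbol. For MALAT1 the numbered rows are MALAT1_1 and MALAT1_2, and MALAT1_2 was at 0 in all samples. MALAT1_1 was at 9.08, 6.17 and 11.3 RPKM in shRNA-NC and at 9.77, 12.2 and 7.36 RPKM in shRNA-UBC9. As for NEAT1, the groups overlapped and replicate 2 of each group held the lowest and the highest value. The means were 8.84 ± 2.55 and 9.77 ± 2.41 RPKM (SD, n = 3 each), with a log2 difference of 0.16 (SE 0.24). Left out in turn, shRNA-NC replicate 2 gave -0.08 and shRNA-UBC9 replicate 2 gave -0.02. The row corresponds to 973 to 2011 reads on a model of 4683 bases, against 10434 exon bases in the annotation. Which transcript the row stands for is not given in the sources used here. MALAT1 also ends without a polyA tail, and this row may understate its level.

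NEAT1 and MALAT1_1 varied together although neither separated the groups. Within shRNA-NC both were lowest in replicate 2 and highest in replicate 3, and within shRNA-UBC9 both were lowest in replicate 3 and highest in replicate 2. Their Pearson correlation on the log2 scale over the 6 samples was 0.9913, and 0.9915 after the group means were removed. The ratio of NEAT1 to MALAT1_1 in RPKM was 7.29 to 7.91 in shRNA-NC and 7.13 to 8.04 in shRNA-UBC9, while NEAT1 itself spanned 48.8 to 90.1 RPKM. The points share their libraries, so a difference between libraries that touches both RNAs would give the same picture, and this was not tested. Mapped reads were estimated at 34635000 for the lowest sample and 35236000 for the highest. The closest other genes were STX8 (r = 0.973) and EPB41L4A-AS1 (r = 0.9635) for NEAT1 and ZNF133 (r = 0.9754) and PPIE (r = 0.9729) for MALAT1_1. Here 28 and 22 genes exceeded r = 0.9.

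**Figure D3:**
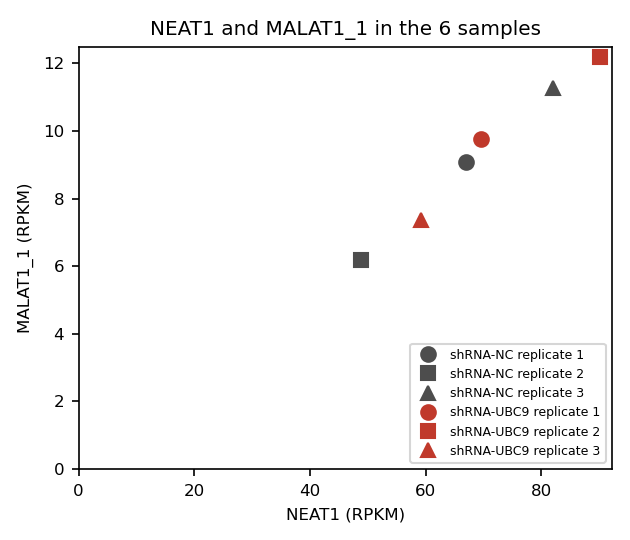
RPKM of NEAT1 (horizontal) against RPKM of MALAT1_1 (vertical), 1 point per sample, with grey for shRNA-NC, red for shRNA-UBC9 and shapes for replicates. The 6 points lie near a line through the origin, and the groups alternate along it.

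The protein-coding genes around both lncRNAs were tested as neighbours. FRMD8 was at a mean of 17.7 in shRNA-NC and 14.9 RPKM in shRNA-UBC9 (log2 difference -0.24, SE 0.11, limma adjusted p = 0.106). LTBP3, which binds latent TGF-beta, was at 7.81 and 9.80 RPKM (log2 difference 0.35, SE 0.21, limma adjusted p = 0.214). Neither of these neighbours was a DEG. Neighbours of the members other than MTCL1 were picked after their values were seen.

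MIR22HG (chr17:1711447-1717174, minus strand) was at 6.10, 4.91 and 5.95 RPKM in shRNA-NC and at 7.31, 8.63 and 7.27 RPKM in shRNA-UBC9. Every knockdown sample exceeded every control, and the gap between the nearest samples was wider than the SD of either group. The means were 5.65 ± 0.648 and 7.74 ± 0.773 RPKM (SD, n = 3 each), with a log2 difference of 0.45 (SE 0.12) that stayed between 0.35 and 0.51 when each sample was left out. The reads behind it were 508 to 601 in shRNA-NC and 613 to 908 in shRNA-UBC9, on a model of 2986 bases. FAM53C (r = 0.9966) and B4GALNT4 (r = 0.9922) followed it most closely over the 6 samples, and 557 genes exceeded r = 0.9.

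Among the neighbours of MIR22HG, RILP, an effector of the lysosomal GTPase RAB7, was at 2.48 ± 0.178 RPKM in shRNA-NC and 4.98 ± 0.669 RPKM in shRNA-UBC9 (SD, n = 3 each). Its log2 difference was 0.97 (SE 0.12, limma adjusted p = 0.000819), just under the fold threshold. SLC43A2, an amino acid transporter, was at 0.735 ± 0.110 and 1.20 ± 0.218 RPKM (log2 difference 0.64, SE 0.19, limma adjusted p = 0.0302). WDR81, whose span overlaps that of MIR22HG on the opposite strand with no shared exon bases, was at 4.30 and 4.22 RPKM (log2 difference -0.03, SE 0.13, limma adjusted p = 0.882). PRPF8, a core splicing factor, was at 50.6 and 42.1 RPKM (log2 difference -0.27, SE 0.12, limma adjusted p = 0.125). These 4 were picked after their values were seen.

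MIR155HG (chr21:25561810-25575168, plus strand), also known as BIC, is a gene that immune cells switch on with activation. It was at 1.36, 1.84 and 1.83 RPKM in shRNA-NC and at 1.82, 3.10 and 1.84 RPKM in shRNA-UBC9. One knockdown sample, replicate 2, stood above the other 5, which overlapped. The means were 1.68 ± 0.273 and 2.25 ± 0.736 RPKM (SD, n = 3 each), with a log2 difference of 0.37 (SE 0.22) that was 0.13 without shRNA-UBC9 replicate 2 and 0.24 without shRNA-NC replicate 1. Reads ranged from 65 to 175 on a model of 1600 bases, and the 175 reads of that sample had an exact Poisson 95% interval of 150 to 203. The closest genes were SUCLG1 (r = 0.993) and C1GALT1C1 (r = 0.9892), with 107 genes above r = 0.9. Its tested neighbour MRPL39, a mitochondrial ribosomal protein gene, was at 23.3 and 24.4 RPKM (log2 difference 0.08, SE 0.11, limma adjusted p = 0.619).

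MIR31HG (chr9:21380073-21559891, minus strand) lies in the type I interferon cluster of chromosome 9, near CDKN2A. It was at 2.70, 1.74 and 2.34 RPKM in shRNA-NC and at 2.38, 2.36 and 2.43 RPKM in shRNA-UBC9. The knockdown samples fell inside the range of the controls. The means were 2.26 ± 0.482 and 2.39 ± 0.0327 RPKM (SD, n = 3 each), with a log2 difference of 0.10 (SE 0.16) that turned to -0.07 without shRNA-NC replicate 2. The reads behind it were 45 to 64 per sample on a model of 745 bases, and the difference was smaller than its SE. IFNE, an interferon gene inside the span of MIR31HG, was at a mean of 0.310 in shRNA-NC and 0.669 RPKM in shRNA-UBC9 and did not pass the filter. KLHL9 was at 5.08 and 5.09 RPKM (log2 difference 0.00, SE 0.10, limma adjusted p = 0.982). The closest genes to MIR31HG were WASH3P (r = 0.9878), which has near-identical copies and is uncertain, and SHC1 (r = 0.9805), with 71 genes above r = 0.9.

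In shRNA-NC the order of the members by level was NEAT1, MALAT1_1, GACAT2, MIR22HG, MIR31HG and MIR155HG. The range of GACAT2 overlapped those of MALAT1_1 and MIR22HG, which did not overlap each other (lowest MALAT1_1 sample 6.17 RPKM, highest MIR22HG sample 6.10 RPKM), and the ranges of MIR31HG and MIR155HG overlapped. In shRNA-UBC9 the order was NEAT1, MALAT1_1, MIR22HG, MIR31HG, MIR155HG and GACAT2, where MALAT1_1 overlapped MIR22HG and MIR31HG overlapped MIR155HG. Replicate 2 was the highest shRNA-UBC9 sample for NEAT1, MALAT1_1, MIR22HG and MIR155HG, and the lowest for GACAT2 and MIR31HG. These levels are per kilobase of the gene models of the files, whose implied lengths are shorter than the annotated exon bases for all 6 members, by the widest margins for NEAT1, MALAT1 and MIR31HG.

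The other microRNA host genes, named by symbols that start with MIR and end with HG, comprised 50 rows, of which 26 were at 0 in all samples and 14 were tested. Of the 14, 1 rose and none fell, against 5.2% and 2.7% of all tested genes, and 13 were not called. The median log2 difference of the 14 was 0.03, against 0.00 over all 12428 tested genes. The one called was MIR3142HG (chr5:160438594-160487426, plus strand), host of miR-146a, a microRNA that restrains NF-kappaB signalling. It was at 0.874, 2.66 and 0.360 RPKM in shRNA-NC and at 10.8, 9.10 and 6.48 RPKM in shRNA-UBC9. All knockdown samples exceeded all controls. The means were 1.30 ± 1.21 and 8.78 ± 2.15 RPKM (SD, n = 3 each), with a log2 difference of 3.02 (SE 0.55, limma adjusted p = 0.00397).

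With an adjusted p below 0.05 at any fold change, 3 of the 14 were higher and none was lower, against 18.8% higher and 18.0% lower over all tested genes. The other two were MIR222HG, host of the seed-sharing pair miR-221 and miR-222, and MIR100HG, host of miR-100, let-7a-2 and miR-125b-1. MIR222HG was at 3.39, 3.46 and 3.28 RPKM in shRNA-NC and at 6.28, 6.60 and 5.75 RPKM in shRNA-UBC9 (log2 difference 0.86, SE 0.09, limma adjusted p = 0.000399). MIR100HG was at 4.01, 3.76 and 5.33 RPKM in shRNA-NC and at 8.001, 8.99 and 6.13 RPKM in shRNA-UBC9 (log2 difference 0.80, SE 0.17, limma adjusted p = 0.00824). Both separated the groups without reaching the fold threshold, and both were picked after their values were seen.

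Hosts of small nucleolar RNAs (snoRNAs), which guide the modification of ribosomal RNA, are lncRNA genes of a related build whose introns carry the small RNAs. Of 24 rows 22 were tested. None was a DEG in either direction, 9 had a lower level at an adjusted p below 0.05 with any fold change and none a higher one. Over all tested genes 7.89% were DEGs, and at any fold change 18.0% were lower and 18.8% higher. The median log2 difference was -0.31, and 17 of 22 estimates were below 0. SNHG19 was at a mean of 33.1 ± 2.55 in shRNA-NC and 18.0 ± 5.47 RPKM in shRNA-UBC9 (log2 difference -0.93, SE 0.21, limma adjusted p = 0.00997). ZFAS1 was at 44.7 ± 3.96 and 27.5 ± 2.22 RPKM (log2 difference -0.70, SE 0.10, limma adjusted p = 0.00144). GAS5, host to several snoRNAs and itself linked to growth arrest, was at 39.4 ± 2.57 and 28.0 ± 1.95 RPKM (log2 difference -0.49, SE 0.09, limma adjusted p = 0.00411). These 3 were picked after their values were seen, and n was 3 for each mean.

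**Figure D4:**
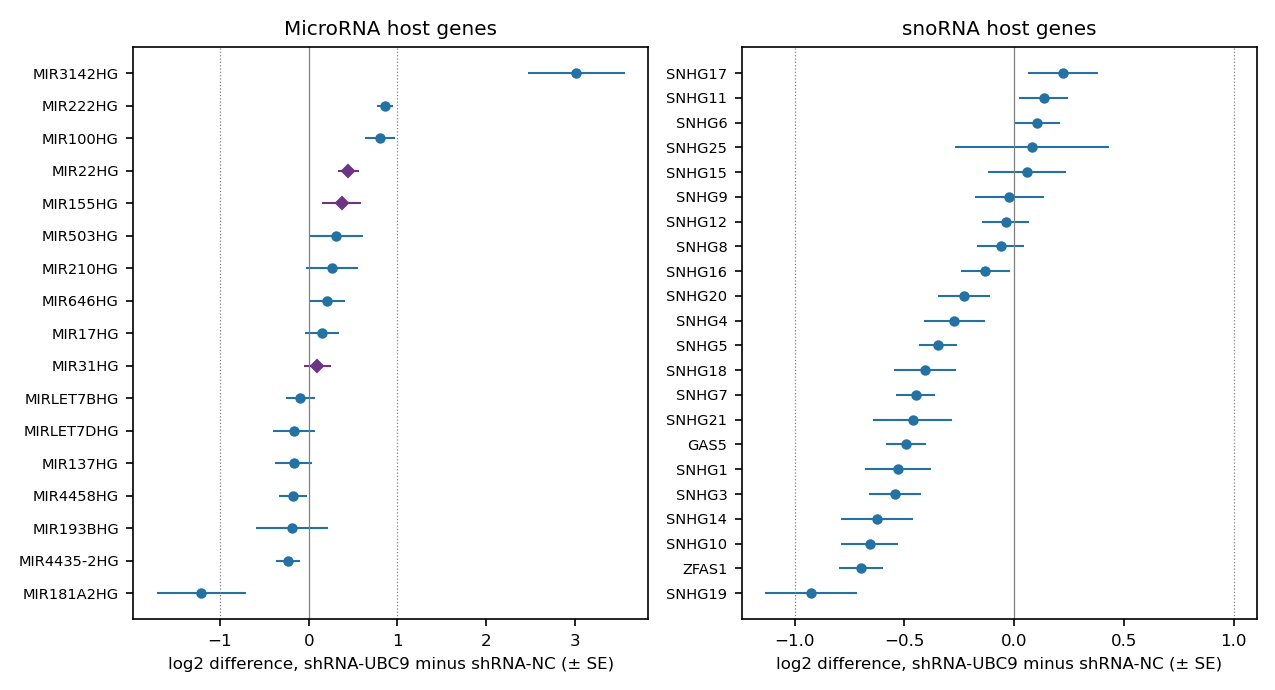
Log2 difference (shRNA-UBC9 minus shRNA-NC, horizontal, ± SE) of every tested microRNA host gene (left, members as purple diamonds) and snoRNA host gene (right). Dotted lines mark the fold threshold at -1 and 1. MIR3142HG stands at 3.02 on the left, and 17 of the 22 snoRNA hosts lie below 0.

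The list named other nuclear lncRNAs was written from general knowledge, and where its RNAs lie in these cells was not measured. It comprised 19 rows, of which 10 were tested and none was a DEG. At any fold change 3 had a lower level with an adjusted p below 0.05 and none a higher one, against 18.0% and 18.8% of all tested genes. The median log2 difference of the list was -0.17. TUG1 was at 24.4, 31.0 and 30.0 RPKM in shRNA-NC and at 22.03, 20.8 and 19.5 RPKM in shRNA-UBC9 (log2 difference -0.45, SE 0.11, limma adjusted p = 0.0150). Without shRNA-NC replicate 3 its limma adjusted p was 0.064. OIP5-AS1, also called Cyrano, was at 8.32 ± 0.984 and 6.48 ± 0.779 RPKM (SD, n = 3 each, log2 difference -0.36, SE 0.12, limma adjusted p = 0.0534). The groups of TUG1 and OIP5-AS1 did not overlap, as held for 51.1% of all tested genes, while those of NEAT1 and MALAT1_1 did overlap.

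Of 24 other lncRNAs named for cancers, as GACAT2 is, 3 were tested, and 1 rose and 1 fell. Over all tested genes 5.2% rose and 2.7% fell, and nothing is read from a list with 3 tested genes. LUCAT1, a lung cancer-associated transcript, was at 0.0461, 0.179 and 0.0305 RPKM in shRNA-NC and at 9.53, 4.03 and 1.78 RPKM in shRNA-UBC9 (log2 difference 4.59, SE 0.55, limma adjusted p = 0.000628). It passed the filter through the shRNA-UBC9 samples alone and was not tested when any of these was left out. With a pseudocount of 1 RPKM its log2 difference was 2.29. DANCR, a lncRNA that also hosts a snoRNA, was at 16.2, 16.0 and 16.6 RPKM in shRNA-NC and at 6.32, 8.10 and 9.69 RPKM in shRNA-UBC9 (log2 difference -1.03, SE 0.14, limma adjusted p = 0.00132). Without shRNA-UBC9 replicate 1 its difference was -0.87 and it was no longer a DEG, nor was it with a pseudocount of 1 RPKM (-0.95).

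Genes for the protein partners of NEAT1 and MALAT1 had mostly negative estimates, 24 of 31 for paraspeckle proteins. Of 32 paraspeckle protein genes 31 were tested, none rose and 1 fell, against 5.2% and 2.7% of all tested genes. At any fold change 15 were lower and 1 higher, against 18.0% and 18.8% of all tested genes. The median log2 difference of the list was -0.25. HNRNPUL1, an hnRNP-like RNA-binding protein, was at 61.7, 53.9 and 56.0 RPKM in shRNA-NC and at 23.3, 29.5 and 33.0 RPKM in shRNA-UBC9 (log2 difference -1.01, SE 0.13, limma adjusted p = 0.000931). It lost the call without shRNA-NC replicate 1 (-0.95) or shRNA-UBC9 replicate 1 (-0.87), and with a pseudocount of 1 RPKM (-0.99). NONO, a core paraspeckle protein picked after its value was seen, was at 129 and 103 RPKM (log2 difference -0.32, limma adjusted p = 0.0167).

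All 29 nuclear speckle and splicing factor genes were tested and none was a DEG. At any fold change 11 were lower and 1 was higher, against 18.0% and 18.8% of all tested genes. In the list 27 of 29 estimates were below 0, and the median was -0.27. SRSF1, a serine/arginine-rich splicing factor, was at 120 ± 12.2 and 97.1 ± 5.23 RPKM (log2 difference -0.31, SE 0.10, limma adjusted p = 0.0373). SRSF2 of the same family was at 118 ± 1.93 and 82.5 ± 20.2 RPKM (log2 difference -0.54, SE 0.17, limma adjusted p = 0.0363), with the spread in shRNA-UBC9 set by 59.5 RPKM in replicate 1. Each of these means has n = 3. With each sample left out in turn, the limma adjusted p of SRSF1 was 0.052 to 0.096. That of SRSF2 was 0.0766 to 0.0956 without an shRNA-NC sample and 0.0163 to 0.0449 without an shRNA-UBC9 sample.

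Of 26 genes of microRNA processing and Argonaute proteins 24 were tested and none was a DEG. At any fold change 6 were lower and 1 was higher, against 18.0% and 18.8% of all tested genes. The median of the list was -0.06. At an unadjusted limma p below 0.05 with the same fold threshold, 0 snoRNA host, 0 speckle or splicing and 0 microRNA processing genes passed, and 1 other nuclear lncRNA did. DDX5, a helicase of the Drosha complex, was at 96.1 ± 11.9 and 90.9 ± 8.04 RPKM (log2 difference -0.08, SE 0.11, limma adjusted p = 0.616). RAN, the GTPase that with exportin-5 carries precursor hairpins out of the nucleus, was at 115 ± 4.38 and 86.0 ± 10.2 RPKM (log2 difference -0.42, SE 0.10, limma adjusted p = 0.0142). DROSHA itself, picked after its value was seen, was at 13.98 and 11.1 RPKM (log2 difference -0.33, limma adjusted p = 0.0346).

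Without the fold requirement, each list of genes known as targets of the 3 microRNAs held both higher and lower genes. By that rule 18.8% of all tested genes were higher and 18.0% lower. Among DEGs only the miR-31 list held both directions, against 5.2% higher and 2.7% lower over all tested genes. Of 24 tested miR-155 targets of 30, 3 rose and none fell, with a median log2 difference of 0.06. At any fold change 5 were higher and 4 lower with an adjusted p below 0.05. CEBPB, a transcription factor of inflammation and differentiation, went from a mean of 15.3 ± 1.85 to 70.6 ± 11.4 RPKM (log2 difference 2.19, SE 0.14, limma adjusted p = 3.06e-05). BACH1, a repressor of antioxidant genes, went from 4.45 ± 0.622 to 14.7 ± 6.85 RPKM (log2 difference 1.61, SE 0.28, limma adjusted p = 0.00322). IKBKE, a kinase of interferon induction, went from 4.35 ± 0.399 to 11.4 ± 0.408 RPKM (log2 difference 1.37, SE 0.09, limma adjusted p = 5.34e-05).

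Of 22 tested miR-31 targets of 24, 1 rose and 1 fell, with a median of 0.05. Without the fold requirement 6 were higher and 5 lower, against 18.8% and 18.0% of all tested genes. The integrin chain gene ITGA5 went from 11.2 ± 2.03 to 22.8 ± 0.554 RPKM (log2 difference 1.03, SE 0.13, limma adjusted p = 0.000865). It was not called without shRNA-NC replicate 2 (0.88), with a pseudocount of 1 RPKM (0.97), or after quantile normalization (0.996) or median scaling (0.99). MMP16, a membrane-type metalloproteinase, went from 1.78 ± 0.402 to 0.724 ± 0.132 RPKM (log2 difference -1.19, SE 0.20, limma adjusted p = 0.00311), and it was not called with a pseudocount of 1 RPKM (-0.68). Of 19 tested miR-22 targets of 24, 3 rose and none fell, with a median of -0.21. Without the fold requirement 4 were higher and 8 lower, against 18.8% and 18.0% of all tested genes. The 3 DEGs were CDKN1A, an inhibitor of cyclin-dependent kinases, from 9.04 ± 0.395 to 38.5 ± 6.22 RPKM (log2 difference 2.07, SE 0.12, limma adjusted p = 2.18e-05), MMP14, a membrane-type metalloproteinase, and SNAI1, a repressor of epithelial genes. MMP14 went from 48.5 ± 9.54 to 134 ± 23.6 RPKM (log2 difference 1.47, SE 0.17, limma adjusted p = 0.000597). SNAI1 went from 1.43 ± 0.412 to 3.64 ± 0.439 RPKM (log2 difference 1.31, SE 0.19, limma adjusted p = 0.00154), and it was not called with a pseudocount of 1 RPKM (0.94). The direction of the median of the miR-22 list and of its DEGs thus differed. Means are given ± SD with n = 3. Mature microRNAs were not measured, and these lists say nothing of their activity.

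**Figure D5:**
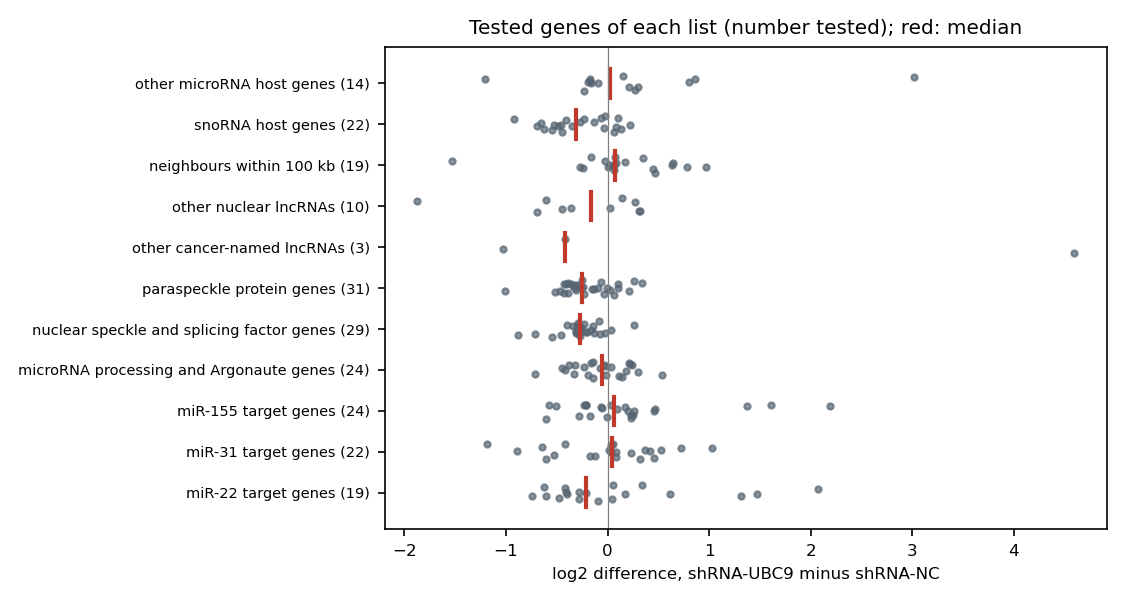
Log2 difference (shRNA-UBC9 minus shRNA-NC, horizontal) of every tested gene of each list, 1 point per gene with vertical jitter, and the median of each list as a red bar. The medians lie between -0.42, of a list with 3 tested genes, and 0.08, of the neighbours within 100 kb, against 0.00 for all tested genes.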

How the data were processed

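RNA from 3 shRNA-NC and 3 shRNA-UBC9 samples was sequenced from polyA RNA with an Illumina TruSeq kit. The authors trimmed adaptors, mapped the reads to GRCh38 with CLC Biomedical Genomics Workbench 4 and deposited RPKM for 58174 genes per sample. The annotation release, use of strand and handling of multiply mapped reads are not given in the sources used here.

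The shRNA-UBC9 and shRNA-NC samples were fitted by limma 3.58.1 (R 4.3.3, functions lmFit and eBayes, trend on intensity) on log2(RPKM + 0.1) over the 12428 genes with at least 0.5 RPKM in at least 3 of 6 samples. Benjamini-Hochberg adjustment was over all of these, and DEGs had an absolute log2 fold change above 1 and an adjusted p below 0.05. This scale understates the change of low genes. An RPKM times gene length and mapped reads gives whole reads. Mapped reads were taken from the commonest value of 1 read over genes with a single transcript in GENCODE 44, and the length of a row as the smallest that gave whole reads in all 6 samples within 0.005 reads. No count model was run. No value above 0 was equal in any pair of samples (0 genes).

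The members and the gene lists were chosen with earlier results of these data known, and the lists were written from general knowledge or by symbol. No set test was run. Named genes were the members, every DEG of the microRNA host, snoRNA host and neighbour lists, up to 4 DEGs of each other list with the largest change or else its 2 most abundant tested genes, the 2 genes most correlated with each member, and cell type markers. Genes outside this rule are named as picked after their values were seen. The level of the targeted gene and a few other genes are not reported here. Alternatives were pseudocounts of 1 and 0.01 RPKM, no filter, a stricter filter, no intensity trend, scaling by quantiles or medians, other thresholds, a block for replicate number and leaving out each sample. An exact permutation test of 3 samples against 3 was not used. The scripts were tested on simulated data. MicroRNA and promoter sequences came from RefSeq (GRCh38.p14). Python 3.11.15, pandas 2.3.3, scipy 1.17.1 and matplotlib 3.10.9 were used.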

Additional observations from a re-analysis of the deposited data

How the results depend on the processing

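GACAT2 was lower in shRNA-UBC9 in every fit that held it, and its log2 difference moved beyond the spread between replicates in 1 of them, to -2.13 with a pseudocount of 1 RPKM. A filter of at least 1 RPKM in every sample removed it. Leaving out each sample gave -3.21 to -2.72 for GACAT2, -0.04 to 0.33 for NEAT1, -0.08 to 0.35 for MALAT1_1, 0.35 to 0.51 for MIR22HG, 0.13 to 0.50 for MIR155HG and -0.07 to 0.23 for MIR31HG. The median over all tested genes, 0.0048, became -0.043 with quantile normalization and -0.0371 with median scaling.

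Over all tested genes, 981 DEGs became 552 with a pseudocount of 1 RPKM, 552 with the filter of 1 RPKM in every sample, 4576 with an adjusted p below 0.05 at any fold change (a threshold chosen after seeing the data), and 799 to 964 with a sample left out. At an adjusted p below 0.05 with any fold change, 36.8% of all tested genes passed. By that rule 3 of 14 other microRNA hosts passed, 9 of 22 snoRNA hosts, 4 of 19 neighbours and 3 of 10 other nuclear lncRNAs. So did 2 of 3 cancer-named lncRNAs, 16 of 31 paraspeckle proteins, 12 of 29 speckle and splicing factors and 7 of 24 microRNA processing genes. Among the targets 9 of 24 passed for miR-155, 11 of 22 for miR-31 and 12 of 19 for miR-22. With the fold threshold kept, the microRNA hosts had 0 DEGs with the stricter filter and 2 with quantile normalization. At an unadjusted p below 0.05 they had 2 and other nuclear lncRNAs had 1. The cancer-named lncRNAs had 1 with a pseudocount of 1 RPKM and 1 with the stricter filter. miR-22 targets had 2 with a pseudocount of 1 RPKM. Paraspeckle proteins had 0 with a pseudocount of 1 RPKM. miR-31 targets had 0 with a pseudocount of 1 RPKM and 1 with the stricter filter, quantile normalization or median scaling. With a sample left out the counts were 1 to 2 for microRNA hosts, 0 to 1 for snoRNA hosts, 1 to 2 for neighbours, 0 to 1 for other nuclear lncRNAs, 0 to 2 for cancer-named lncRNAs, 0 to 1 for paraspeckle proteins and 1 to 2 for miR-31 targets. Of 19 named genes 6 changed in at least 1 fit, over 12 of 260 fits, all by a lost call except 1 reversed estimate, DDX5, which ranged from -0.146 to 0.0224 with a sample left out. Calls here needed the fold threshold, so a gene below it that lost an adjusted p under 0.05 was not counted. Where a pseudocount or filter moved a count, the cause was not tested.

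The replicate numbers did not pair the samples: the deviations of same-numbered samples from their group means had correlations of -0.37, 0.07 and -0.17. The largest correlation between the groups was 0.53, for shRNA-NC replicate 1 and shRNA-UBC9 replicate 3. Each had the lowest estimated depth of its group (29848000 and 28219000 mapped reads), and what they share was not tested. With a replicate block 974 genes were DEGs, and the members' differences were as without it (-3.01 for GACAT2). The fewest reads per sample were behind GACAT2 in shRNA-UBC9 (15 to 25), MIR31HG (45 to 64) and MIR155HG (65 to 175).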
